A study of Mus musculus with 12 samples.

Results

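The genes described here encode proteins of the myelin sheath made by oligodendrocytes. They are Cnp, Mbp, Cldn11, Mag, Mog, Mobp, Mal, Ermn and Opalin, and they were found by matching the Ensembl identifiers of the deposited table to these symbols. All 9 genes were present among the 47069 distinct identifiers of the table, and all 9 were among the 18319 genes that passed the filter on low values, at least 0.7 CPM in at least 3 libraries (CPM are read counts divided by the rescaled size of the library). Opalin passed only through its level in P7 spinal cord, so its calls in comparisons with that group were nearly fixed in advance.

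RNA was measured by stranded total RNA-seq in cells sorted for GFP from the Pdgfra-H2BGFP mouse line, in which Pdgfra drives a nuclear GFP. Pdgfra is the gene of a growth factor receptor carried by oligodendrocyte precursor cells (OPCs). All groups carry this knock-in, and the labels give no treatment. There were 4 groups of 3 libraries, formed by region (brain or spinal cord) and age (E13.5, a day of embryonic life, or P7, a postnatal day). The study's methods state that forebrain was taken as brain, that cells of several animals of both sexes were pooled for a library, and that the cells with high GFP were kept at P7. Embryonic tissue was dissociated mechanically and P7 tissue with papain, so age and dissociation cannot be told apart. In bulk samples of this kind, fewer cells of a type and less RNA per cell cannot be told apart either.

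The libraries held 12566345 to 38790312 reads assigned to genes. E13.5 spinal cord replicate 3 stood apart, with the fewest reads and with 21673 genes detected against 24488 to 25887 in the other 11 libraries. At P7, replicates 1 and 2 of each region were much alike. A chi-square test of their reads gave a p under 0.05 for 10.2% of genes in brain and 13.4% in spinal cord, against 41.9% to 43.3% for the P7 pairs with replicate 3, so they differed by a little more than sampling noise and were kept as separate libraries. The study's methods call the libraries of each age and region pooled biological replicates, and do not list the animals of each pool. If replicates 1 and 2 were not separate pools of animals, n is below 3 at P7 and the SEs and p-values there are too small. Pdgfra itself was at 2639.5 to 3402 CPM in P7 brain, 2014 to 2140 CPM in P7 spinal cord and 341 to 787 CPM at E13.5.

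Oligodendrocytes arise from OPCs that leave the cell cycle, pass through a committed and a newly formed stage, and then wrap axons with many layers of membrane. In compact myelin the membrane faces are held together by basic proteins such as Mbp and Mobp and by tetraspan proteins, while Mag lies next to the axon, Mog on the outermost surface, and the loops beside the node keep some cytoplasm. Differentiating cells switch on Cnp and Mbp before Mag, Mog, Mobp, Mal and Opalin, and the spinal cord of the mouse is myelinated before the forebrain. Cnp, Mbp and Cldn11 are called early genes below and the other 6 late genes. For 7 genes the assignment follows this order, with Mag, Mog and Mal placed by the study among genes of later differentiation. Cldn11 and Ermn are not in that order, and the whole assignment was made with earlier results of these data known.

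The start regions of 4 members are shown because the members that moved together differ in the letters found there. Cnp stands for the early genes, Mag, Mobp and Mog for the late ones. Each is the RefSeq window from 250 bases before to 50 bases after the annotated transcription start, on GRCm38.p6. Windows were found for 8 of the 9 members. The motifs searched on both strands were ACAAAG, a core bound by SOX factors such as Sox10, AACAAT, a second such core, CTGGCAC, a form of the site bound by Myrf, the myelin regulatory factor, with its variant CTGGTAC, the TATA box TATAAA and the box CCAAT. None of them lies within another. Capitals mark every match, and a match to the other strand appears as its reverse complement, for example CTTTGT for the first SOX core. The windows are chr11:100574689-100574988 on the plus strand for Cnp, chr7:30914814-30915113 on the minus strand for Mag, chr9:120149492-120149791 on the plus strand for Mobp and chr17:37023349-37023648 on the minus strand for Mog.
Cnp: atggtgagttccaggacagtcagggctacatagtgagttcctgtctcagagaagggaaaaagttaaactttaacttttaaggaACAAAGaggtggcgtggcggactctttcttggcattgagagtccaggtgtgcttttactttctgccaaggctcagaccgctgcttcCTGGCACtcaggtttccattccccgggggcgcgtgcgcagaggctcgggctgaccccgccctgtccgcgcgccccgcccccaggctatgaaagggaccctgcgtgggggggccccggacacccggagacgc
Mag: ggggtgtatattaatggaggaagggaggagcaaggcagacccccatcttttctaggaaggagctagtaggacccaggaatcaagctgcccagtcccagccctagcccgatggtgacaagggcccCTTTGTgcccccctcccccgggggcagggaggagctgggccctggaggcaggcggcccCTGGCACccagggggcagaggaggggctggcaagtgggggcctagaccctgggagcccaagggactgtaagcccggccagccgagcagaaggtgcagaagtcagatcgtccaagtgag
Mobp: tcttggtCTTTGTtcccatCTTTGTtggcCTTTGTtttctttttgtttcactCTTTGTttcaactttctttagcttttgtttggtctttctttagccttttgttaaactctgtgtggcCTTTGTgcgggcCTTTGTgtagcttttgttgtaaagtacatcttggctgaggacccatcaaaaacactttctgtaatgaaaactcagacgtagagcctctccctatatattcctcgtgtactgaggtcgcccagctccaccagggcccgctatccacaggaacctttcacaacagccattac
Mog: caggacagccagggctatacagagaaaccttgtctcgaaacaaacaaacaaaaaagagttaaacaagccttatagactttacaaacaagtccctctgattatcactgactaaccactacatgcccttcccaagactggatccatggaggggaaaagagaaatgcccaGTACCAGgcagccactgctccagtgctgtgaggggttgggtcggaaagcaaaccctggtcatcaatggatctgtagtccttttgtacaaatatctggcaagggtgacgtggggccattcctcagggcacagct

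The Mobp window held 6 matches to ACAAAG, all on the minus strand and between 243 and 120 bases before the start, a number reached by 1 of the 32544 windows searched. At least 1 match was present in 18.7% of all windows, and in a window of 4 of the 8 members, namely Mobp, Mag, Cnp and Opalin. CTGGCAC was present in 5.04% of all windows and in Mag, Cnp and Opalin, and CTGGTAC in 2.23% of all windows and in Mog. AACAAT (10.6% of all windows) and TATAAA (13.6%) were in none of the 8. The CCAAT box (37.4%) was in Ermn and Cldn11 and in other windows of Mag. No motif of the search was found in the window of Mal. Some members have several windows, so the member counts are per gene and the shares are per window. These are letter matches, and binding was not measured.

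Cnp (ENSMUSG00000006782, chr11:100574904-100591729, plus strand) encodes the cyclic nucleotide phosphodiesterase that keeps cytoplasmic channels open within myelin. It was at 12.3, 21.2 and 25.1 CPM in E13.5 brain and at 14.5, 19.9 and 22.6 CPM in E13.5 spinal cord. At P7 it was at 546, 543 and 1023 CPM in brain and at 3529, 3433 and 2571 CPM in spinal cord. The embryonic groups overlapped, and every P7 brain library lay above them and below every P7 spinal cord library. An exon of Cnp shares 154 bases with Dnajc7 on the opposite strand, a gene at a mean of 130.5 CPM, and whether counting used the strand is not given in the sources used here.

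Mbp (ENSMUSG00000041607) encodes myelin basic protein, which draws the cytoplasmic faces of the membrane together. It was at 12.9, 14.8 and 25.5 CPM in E13.5 brain and at 13.3, 14.5 and 8.10 CPM in E13.5 spinal cord. At P7 it reached 527, 534 and 1325 CPM in brain. In P7 spinal cord it reached 6457, 6196 and 4094 CPM, where Mbp alone gave more reads than any other member. The group order was the same as for Cnp.

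Cldn11 (ENSMUSG00000037625, chr3:31149920-31164324, plus strand) encodes the claudin of the tight junction strands between myelin layers. It had another pattern. It was already at 287, 212 and 328 CPM in E13.5 brain and at 112, 148 and 179 CPM in E13.5 spinal cord. Levels were lower in P7 brain, at 85.0, 87.3 and 208 CPM, and highest in P7 spinal cord, at 1459, 1434 and 984 CPM. P7 brain did not overlap E13.5 brain but overlapped E13.5 spinal cord. Genes of the leptomeninges, a tissue known to express Cldn11, were higher at E13.5 than at P7. The summed level of 6 of them (Col1a1, Col1a2, Dcn, Lum, Pdgfrb and Igf2, none listed at 0 in any group) was 2797 to 3976 CPM in E13.5 brain, 5928 to 6599 CPM in E13.5 spinal cord. At P7 it was 921 to 1189 CPM in brain and 717 to 1429 CPM in spinal cord. Their part in the level of Cldn11 was not tested.

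The late genes were at low levels in the embryo. Mag (ENSMUSG00000036634, chr7:30899176-30914873, minus strand), the glycoprotein of the membrane facing the axon, was at 0.57, 0.088 and 5.20 CPM in E13.5 brain, from 12, 2 and 97 reads. It was at 0.71, 0.58 and 0.67 CPM in E13.5 spinal cord. At P7 it was at 87.4, 91.7 and 262 CPM in brain and at 2478, 2366 and 1589 CPM in spinal cord. Replicate 3 was the highest library within each brain group.

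Mog (ENSMUSG00000076439, chr17:37010743-37023398, minus strand) encodes the glycoprotein of the outermost myelin surface. It had 0, 1 and 11 reads in E13.5 brain and 2, 0 and 0 reads in E13.5 spinal cord. It was at 5.63, 6.05 and 16.8 CPM in P7 brain and at 315, 316 and 237 CPM in P7 spinal cord. Every P7 library was above every embryonic one.

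Mobp (ENSMUSG00000032517, chr9:120149707-120181484, plus strand) encodes a second basic protein of compact myelin. It had 14, 0 and 73 reads in E13.5 brain, 3.91 CPM in replicate 3, and 2, 0 and 0 reads in E13.5 spinal cord. It was at 17.1, 17.1 and 81.9 CPM in P7 brain and at 1516, 1491 and 1029 CPM in P7 spinal cord. Among the members it had the widest spread between P7 brain libraries in CPM, with a coefficient of variation of 96.7%.

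Mal (ENSMUSG00000027375, chr2:127633226-127656695, minus strand) encodes a proteolipid of membrane traffic to myelin. It was at 0.29, 0 and 1.5 CPM in E13.5 brain and at 0.24, 0.44 and 1.18 CPM in E13.5 spinal cord. It was at 4.57, 4.46 and 12.6 CPM in P7 brain and at 589, 593 and 492 CPM in P7 spinal cord. The P7 brain libraries of Mal lay above the embryonic ones by a smaller margin than those of Mag did.

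Ermn (ENSMUSG00000026830, chr2:58045113-58052864, minus strand) encodes ermin, a protein of the oligodendrocyte cytoskeleton. It was at 1.62, 2.11 and 2.36 CPM in E13.5 brain and at 0.30, 0.089 and 0.84 CPM in E13.5 spinal cord. It was at 3.33, 3.14 and 5.81 CPM in P7 brain and at 147, 149 and 122 CPM in P7 spinal cord. The E13.5 brain libraries of Ermn all lay above those of E13.5 spinal cord.

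Opalin (ENSMUSG00000050121, chr19:41061710-41077113, minus strand) encodes a transmembrane protein of the paranodal loops. It had 1 read in all 3 E13.5 brain libraries and none in E13.5 spinal cord. It had 3, 2 and 14 reads in P7 brain, at 0.091, 0.066 and 0.37 CPM. It was at 9.80, 10.2 and 8.93 CPM in P7 spinal cord, from 363, 331 and 288 reads. It was the lowest member in every group.

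**Figure D1:**
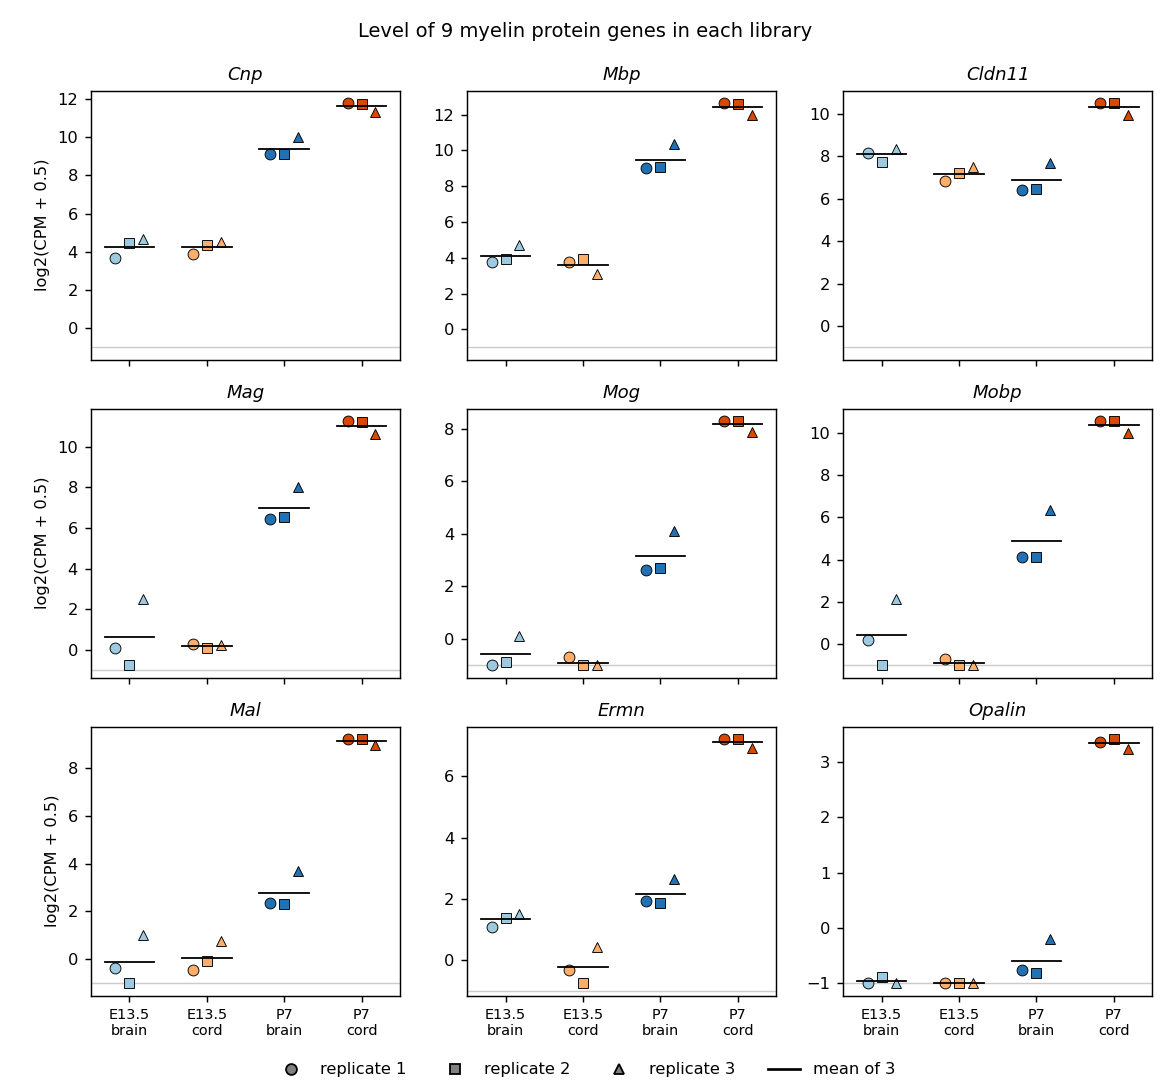
Level of each of the 9 genes in each library, as log2(CPM + 0.5), with the 4 groups on the x axis, a symbol per replicate and a line at the mean of 3 libraries. The grey line at -1 is a value of 0 CPM. P7 spinal cord is the highest group in every panel, and within P7 brain replicate 3 lies above replicates 1 and 2 for all 9 genes.

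Taken as one sum, the 9 genes held 1276, 1287 and 2935 CPM in the P7 brain libraries and 16501, 15988 and 11128 CPM in those of P7 spinal cord. These were 0.152% (95% Wilson interval 0.151% to 0.154%), 0.154% (0.152% to 0.156%) and 0.352% (0.350% to 0.354%) of the reads of the brain libraries, against 1.58%, 1.55% and 1.11% of those of the spinal cord libraries. At E13.5 the sum was 251 to 392 CPM in brain and 142 to 212 CPM in spinal cord, most of it Cldn11. As a share of reads it was 0.0367%, 0.0287% and 0.0430% in the brain libraries and 0.0161%, 0.0220% and 0.010% in those of spinal cord. E13.5 spinal cord replicate 3 was thus the highest of its group in CPM and the lowest in share of reads, its library size having been rescaled by a factor of 0.472. Intervals of this kind cover counting error only.

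Levels of different genes can be compared only per length of exon. The length used was the union of all annotated exons, 8469 bases for Mbp and 6849 for Mobp against 1704 to 4072 for the other members. Where the transcripts present are shorter than this union the value is too low, so the order depends on this choice of length. In P7 spinal cord the order in CPM per kilobase of exon was Cnp (873 ± 145, SD, n = 3), Cldn11 (691 ± 143), Mbp (659 ± 153), Mag (527 ± 119), Mal (201 ± 20.5), Mobp (196 ± 40.0), Mog (170 ± 26.7), Ermn (38.4 ± 4.13) and Opalin (3.28 ± 0.221). Cldn11 and Mbp, and Mal and Mobp, lay closer to each other than the SD of either. In P7 brain the order was Cnp (194 ± 75.9), Mbp (93.9 ± 54.2), Cldn11 (67.7 ± 37.5), Mag (36.1 ± 24.4), Mobp (5.65 ± 5.46), Mog (5.58 ± 3.72), Mal (2.60 ± 1.68), Ermn (1.13 ± 0.41) and Opalin (0.0596 ± 0.0572), with most neighbours within the SD of each other. Mal ranked above Mobp and Mog in spinal cord and below them in brain.

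The comparison of brain with spinal cord at P7 asks whether the sorted cells of the 2 regions differ in their myelin genes. All 9 genes were lower in P7 brain and all 9 were called (limma on log2(CPM + 0.5), Benjamini-Hochberg adjusted p under 0.05 and more than 2-fold), where 4.35% of all tested genes were called lower in brain. The median log2 difference of the 9 genes was -4.03, beside -0.19 over all tested genes. TMM scaling (trimmed mean of M values) of the reads moved the median of all genes to 0.01. Of all calls 65.7% were lower in brain with the deposited scaling and 50.6% with TMM scaling. In all 9 genes every P7 brain library lay below every P7 spinal cord library, a separation seen in 49.4% of all tested genes. For Opalin the call and the separation were nearly fixed by the filter, and all other members showed both.

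Cnp differed least, with a log2 difference of -2.23 (SE 0.29, 4.68-fold, adjusted p = 0.0001318 by limma). Mbp followed at -2.93 (SE 0.36, 7.60-fold) and Cldn11 at -3.46 (SE 0.31, 11.0-fold). These early genes made up the small end of the range. Opalin was at -3.94 (SE 0.17) and Mag at -4.03 (SE 0.65, 16.4-fold). Ermn at -4.97 (SE 0.28, 31.4-fold) and Mog at -5.02 (SE 0.38, 32.4-fold) were level. Mobp was at -5.49 (SE 0.69, 45.0-fold). Mal differed most, at -6.33 (SE 0.49, 80.5-fold, limma adjusted p = 2.12e-06). Over the 9 genes the adjusted p from limma ran from 4.105e-08 to 0.000662. Opalin and Mag, Cldn11 and Mag, and Ermn, Mog and Mobp, differed from one another by less than the larger SE. With P7 replicates 1 and 2 of each region averaged into 1 library all 9 genes were still called, at larger adjusted p from limma, 0.02107 for Mag (log2 difference -3.67) and 0.005558 for Mobp (-5.03).

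The pseudocount of 0.5 CPM held down the value of Opalin. From pooled reads, 982 in spinal cord and 19 in brain, the ratio of spinal cord to brain was 51.4 (95% counting interval 32.7 to 85.8), between Ermn (33.4) and Mal (74.2). On that measure the other ratios were 4.42 for Cnp, 6.79 for Mbp, 9.88 for Cldn11, 14.0 for Mag, 29.2 for Mog and 32.7 for Mobp.

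On both measures each of the 6 late genes differed more between regions than each of the 3 early genes. The median log2 difference was -5.00 for the late genes and -2.93 for the early genes, a gap of -2.07, which ran from -2.13 to -1.98 over single libraries left out. The members just on each side of the division were Cldn11 among the early and Opalin or Mag among the late genes. The log2 differences of Cldn11 and Mag lay closer to each other than the SE of Mag (0.65), so their order was not resolved. With Mag counted as early the gap was -1.83. No test was made over the members, since they and their assignment were chosen with results known.

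**Figure D2:**
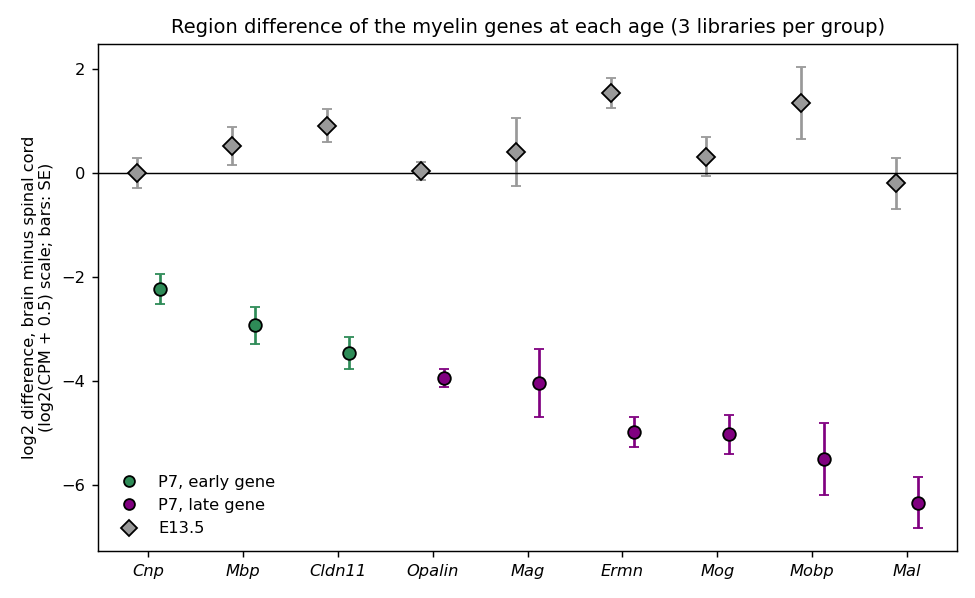
Log2 difference of brain minus spinal cord for each gene on the y axis, with its SE, at P7 (circles, green for early and purple for late genes) and at E13.5 (grey diamonds), 3 libraries per group. The genes run from Cnp at -2.23 to Mal at -6.33 at P7, and the E13.5 values lie between -0.19 and 1.55.

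Ratios between genes within a library do not depend on how the library was scaled. In P7 spinal cord Mag was at 70.2%, 68.9% and 61.8% of the CPM of Cnp, and in P7 brain at 16.0%, 16.9% and 25.6%. Mobp was at 43.0%, 43.4% and 40.0% of Cnp in spinal cord and at 3.12%, 3.15% and 8.0% in brain. Mal was at 16.7%, 17.3% and 19.2% in spinal cord and at 0.838%, 0.822% and 1.23% in brain. The brain and spinal cord libraries did not overlap in any of these ratios, nor in those of Mog, Ermn, Opalin, Cldn11 and Mbp to Cnp. Cnp itself separated the regions, so a gene at an equal level in all P7 libraries would be separated too, with the higher ratio in brain. The share of all tested genes separated in this ratio was not computed. The brain minus spinal cord difference of the log2 ratio to Cnp was -0.70 for Mbp and -1.23 for Cldn11. It was -1.81 for Mag, -2.88 for Mog, -2.92 for Ermn, -3.30 for Mobp, -3.98 for Opalin and -4.22 for Mal. The median of the 6 late genes was -3.11 relative to Cnp and -2.41 relative to Mbp.

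**Figure D3:**
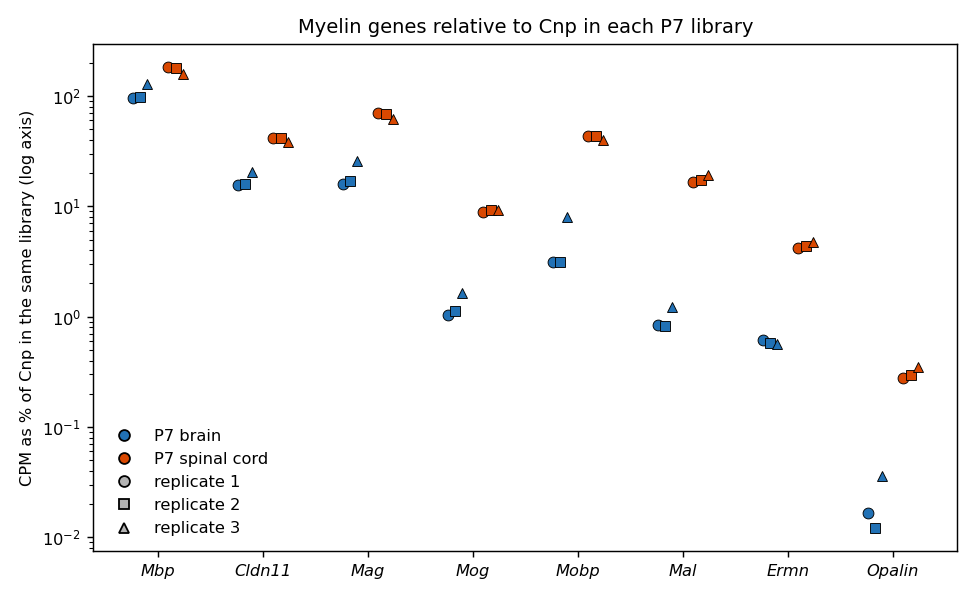
CPM of 8 genes as a percent of the CPM of Cnp in the same library (log axis), for each P7 brain (blue) and spinal cord (orange) library, with a symbol per replicate. The blue symbols lie below the orange ones for every gene, by a wider margin for the 6 late genes than for Mbp, and in brain replicate 3 stands above replicates 1 and 2 for all genes but Ermn.

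The 3 P7 brain libraries were not alike in these genes. Replicate 3 was above replicates 1 and 2 in all 9. Its level over that of replicates 1 and 2 together was 4.79 for Mobp (95% counting interval 4.47 to 5.14), 2.93 for Mag (2.83 to 3.02) and 2.88 for Mog (2.53 to 3.29). It was 2.79 for Mal, 2.5 for Mbp and 2.41 for Cldn11. Cnp at 1.88 (1.85 to 1.91) and Ermn at 1.79 (1.48 to 2.18) had the smallest ratios. Opalin was at 4.68 from few reads (1.59 to 16.6). All 9 intervals lay above 1. Among 15363 tested genes with at least 100 reads in these libraries the median ratio was 1.00, the 5th to 95th percentile ran from 0.770 to 1.44, and 4.05% were at 1.5 or more. Each of the 9 members was therefore beyond the 95th percentile of the genes of its own libraries.

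Replicates 1 and 2 of P7 brain differed little. Their ratio was 0.943 to 1.07 in the 8 members other than Opalin, and every such interval included 1. The highest over the lowest P7 brain library was 4.80 for Mobp, 2.99 for Mag, 2.51 for Mbp, 1.88 for Cnp and 1.85 for Ermn, with a median of 2.82 over the 9 genes. The median coefficient of variation of the members was 64.7%, beside 6.69% over the genes with at least 100 reads. Without replicate 3 the median of the highest over the lowest library was 1.03.

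Late genes other than Ermn also stood higher relative to Cnp in that library. Mog was at 1.64% of Cnp in brain replicate 3 and at 1.03% and 1.11% in replicates 1 and 2. Ermn was at 0.568% of Cnp in replicate 3 and at 0.610% and 0.579% in the others. Mbp was at 129.6% of Cnp in replicate 3 and at 96.5% and 98.4% in the others. In 7 of the 8 genes set against Cnp the brain replicate with the highest ratio was thus replicate 3, Ermn being the exception, and it remained below every spinal cord library.

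In P7 spinal cord replicate 3 stood on the other side. It was lower than replicates 1 and 2 together in all 9 genes, with ratios from 0.646 for Mbp and 0.655 for Mag to 0.833 for Mal and 0.894 for Opalin. The interval lay below 1 in 8 genes, and for Opalin it ran from 0.777 to 1.03. The 5th percentile of 15493 tested genes with at least 100 reads was 0.728, so that Mbp, Mag, Cldn11 and Mobp (0.680 and 0.684 for the last 2) lay beyond it and the other 5 did not. The median coefficient of variation of the members was 16.6% in spinal cord.

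**Figure D4:**
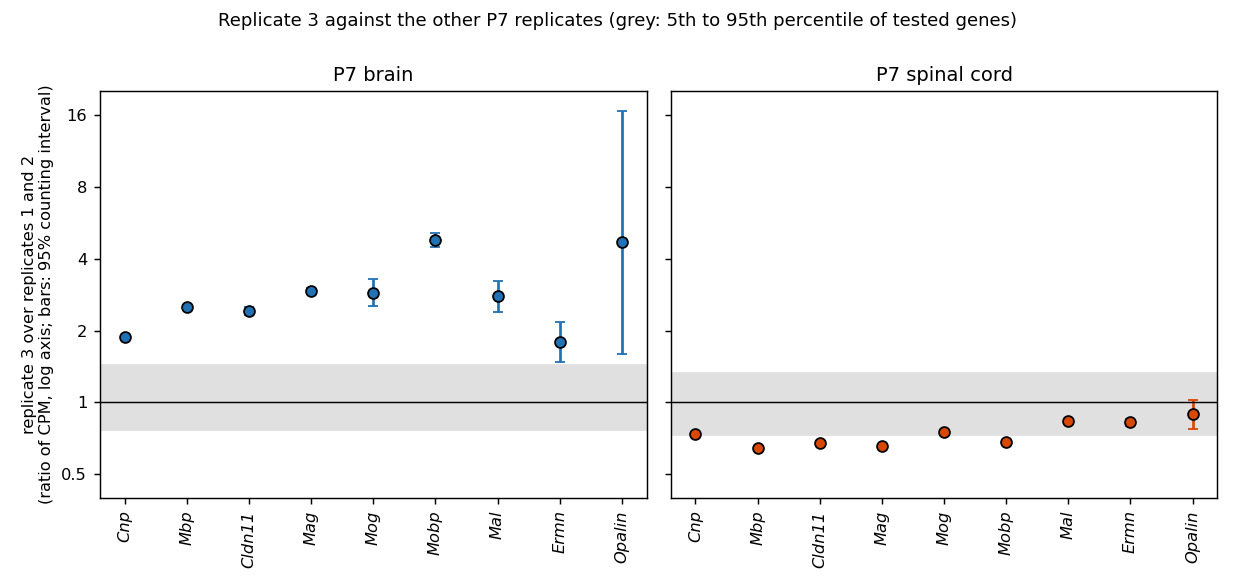
Level of replicate 3 over that of replicates 1 and 2 together (ratio of CPM, log axis) for each gene in P7 brain and P7 spinal cord, with the 95% counting interval. The grey band is the 5th to 95th percentile over tested genes with at least 100 reads, 0.770 to 1.44 in brain and 0.728 to 1.33 in spinal cord. All 9 brain points lie above the band, from 1.79 to 4.79, and the spinal cord points lie between 0.646 and 0.894.

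Other marker genes moved with these libraries. In P7 brain replicate 3 all 6 genes of committed and newly formed oligodendrocytes (Bmp4, Neu4, Gpr17, Prom1, Tspan2, Enpp6) were above the mean of replicates 1 and 2, with a median ratio of 1.60, and 3 of 10 OPC markers were, with a median of 0.969. All 5 microglia markers were higher as well, with a median ratio of 2.13 and a summed level of 55.5 CPM against 26.6 CPM in each of the others. So were all 6 leptomeningeal and vascular genes (median ratio 1.33, sum 1189 CPM against 921 and 948 CPM), all 3 endothelial markers (1.25) and 4 of 5 astrocyte markers (1.32). The summed level of the 5 astrocyte markers was lower in that library, at 536 CPM against 594 and 592 CPM. Slc1a3, the highest of the 5, was at 377 CPM against 460 and 456 CPM. In P7 spinal cord replicate 3 all 6 leptomeningeal and vascular genes were higher, with a median ratio of 1.92. There 4 of 5 microglia markers (median ratio 0.357), 3 of 3 endothelial markers (0.342) and 4 of 5 astrocyte markers (0.674) were lower. Of 6 genes of committed and newly formed oligodendrocytes 3 were higher in that library (median ratio 0.962), and of 10 OPC markers 8 (1.06). Of 30 other maturation and myelin genes, described below and including Tspan2 and Enpp6, 27 were higher in brain replicate 3 (median ratio 1.75). In spinal cord replicate 3 it was 4 of the 30 (0.767). Of 6 neuronal markers 3 were higher in brain replicate 3 (1.00) and 2 in spinal cord replicate 3 (0.866). The part of these marker genes in the spread of the myelin genes was not tested. Without brain replicate 3 the region differences ran from -2.53 for Cnp to -6.79 for Mal with a median of -4.55, and without both P7 replicates 3, a choice made after seeing the data, from -2.68 to -6.88 with a median of -4.75. All 9 genes were called each time. The largest move was that of Mobp, from 45.0-fold to 75.4-fold without brain replicate 3 and 85.5-fold without both.

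In the embryo brain replicate 3 was also the high library for several members. Mag in E13.5 brain replicate 3 was 16.3 times the level of replicates 1 and 2 together (95% counting interval 9.25 to 30.9). The ratio was 12.3 (6.86 to 23.5) for Mobp, 11.0 (4.46 to 32.4) for Mal, 25.9 (3.76 to 1113) for Mog, 1.84 for Mbp, 1.48 for Cnp and 1.32 for Cldn11. For Ermn it was 1.26 with an interval that included 1 (0.854 to 1.84), and the single read of Opalin was in replicate 2. The 3 endothelial markers were higher in that library too, with a median ratio of 3.57. So were 9 of 10 OPC markers (1.30) and 5 of 6 genes of committed and newly formed oligodendrocytes (1.56). The same held for 4 of 5 microglia markers (1.56) and 4 of 6 leptomeningeal and vascular genes (1.15). Of 30 other maturation and myelin genes, described below, 20 were higher (1.38). Of 5 astrocyte markers 2 were higher (0.686), with a sum of 1172 CPM against 1020 and 863 CPM. Of 6 neuronal markers 3 were higher (0.996). The part of these marker genes was not tested. Of tested genes with at least 100 reads in E13.5 brain 4.31% were at 1.5 or more. The label alone ties the embryonic to the postnatal replicates of a number, since they are different animals.

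The comparison of P7 with E13.5 asks how these genes change as the sorted population ages. In brain 6 of 9 genes rose (11% of all tested genes were called higher at P7) and 1 fell (16.7% were called lower). Of all calls in brain 60.3% were lower at P7 with the deposited scaling and 50.3% with TMM scaling. Mag rose by 6.39 on the log2 scale (SE 0.65, 84.0-fold), Mbp by 5.36 (SE 0.36), Cnp by 5.13 (SE 0.29), Mobp by 4.43 (SE 0.69), Mog by 3.73 (SE 0.38) and Mal by 2.90 (SE 0.49), with adjusted p from limma between 1.764e-08 and 0.0002189. The size of the rise of Mag and Mobp rested on single libraries. Mag was at 5.70 without E13.5 brain replicate 2 and at 7.34 without E13.5 brain replicate 3. Mobp was at 3.70 and 5.27 in the same order, and at 3.68 without P7 brain replicate 3. Cldn11 fell by 1.23 (SE 0.31, limma adjusted p = 0.004644). With DESeq2 its difference was -0.94, short of the fold threshold. The 6 leptomeningeal genes had a median difference with age of -1.88 in brain and of -2.86 in spinal cord, where Cldn11 rose. Their part in the change of Cldn11 was not tested. Ermn had a difference of 0.83 (SE 0.28, limma adjusted p = 0.02358), under the fold threshold, and passed it with TMM scaling at 1.00, quantile normalization at 1.17, edgeR at 1.03 and DESeq2 at 1.21. Opalin had a difference of 0.37 (limma adjusted p = 0.08589) and was called by edgeR, limma-voom, DESeq2 and with a pseudocount of 0.1. Its ratio from 19 against 1 pooled reads was 11.7 (95% counting interval 1.87 to 488).

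In spinal cord all 9 genes rose with age, where 16.9% of all tested genes were called higher. The call of Opalin was nearly fixed by the filter here too. The differences ran from 3.14 for Cldn11 (8.83-fold) and 4.34 for Opalin to 10.83 for Mag and 11.27 for Mobp on the log2 scale. Cnp rose by 7.36, Ermn by 7.35, Mbp by 8.82, Mal by 9.04 and Mog by 9.06, and the largest adjusted p from limma was 1.756e-06. The fold values of the genes that were almost absent from the embryo rest on few embryonic reads. Mobp and Mog had 2 reads each in E13.5 spinal cord, with ratios of 30605 (8472 to 252720) and 6565 (1817 to 54210) for P7 over E13.5 and 95% counting intervals in brackets. Opalin, with no read there, was at least 146-fold higher at P7, taking 3 reads over the embryonic group as the floor.

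**Figure D5:**
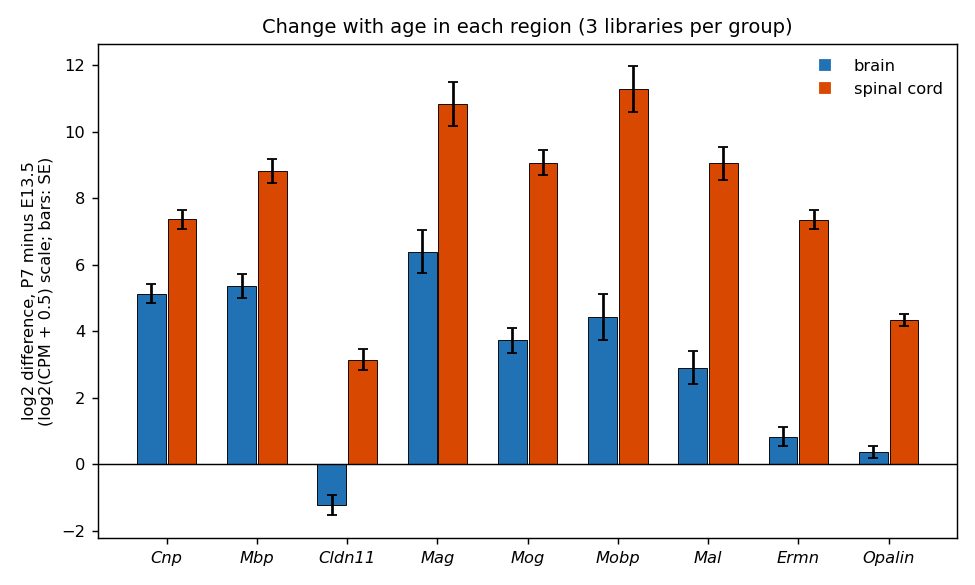
Log2 difference of P7 minus E13.5 for each gene in brain (blue) and spinal cord (orange), with its SE, 3 libraries per group. The orange bar is the taller in all 9 genes, and Cldn11 is the gene whose bar is below 0 in brain, at -1.23.

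The test of the difference between the regions in their change with age found all 9 genes called, with a smaller change in brain, where 9.66% of all tested genes were called in that direction. For Opalin this direction was nearly fixed by the filter. With TMM scaling the share of calls in that direction fell from 59.2% to 39.3% over all genes, and all 9 members remained called. The difference between the changes was -2.23 for Cnp, -3.45 for Mbp, -3.98 for Opalin, -4.37 for Cldn11, -4.44 for Mag, -5.33 for Mog, -6.14 for Mal, -6.52 for Ermn and -6.84 for Mobp on the log2 scale. Mag was at -5.13 without E13.5 brain replicate 2 and at -3.49 without E13.5 brain replicate 3. Mobp was at -7.57 and -6.00 in the same order, and at -7.59 without P7 brain replicate 3. Some calls were lost on the reads themselves. With limma-voom the adjusted p was 0.06159 for Mag and 0.06361 for Mobp, at differences of -3.97 and -7.93, and with edgeR it was 0.09246 for Opalin, at -7.77. The fitted differences of Mobp and Opalin were thus larger than in limma.

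At E13.5 limma called 1 of the 9 genes between the regions. Ermn was higher in brain, with a log2 difference of 1.55 (SE 0.28, limma adjusted p = 0.001241), where 3.53% of all tested genes were called higher in brain. On the reads its difference was 2.76 with DESeq2 to 2.99 with limma-voom. It was thus higher in brain at E13.5 and lower in brain at P7. Ermn overlaps Galnt5 on the opposite strand by 237 exon bases, a gene at a mean of 0.980 CPM. Cldn11 was at 0.91 (limma adjusted p = 0.04169), under the fold threshold, while the 6 leptomeningeal genes had a median of -0.73 in the same contrast, with 3 called lower in brain. Mobp was at 1.35 (SE 0.69, limma adjusted p = 0.158) and was called by DESeq2, at 4.89, and without brain replicate 2, at 2.08. Cnp was at 0.00 and Mbp at 0.53. The direction of Cnp, Mag, Mog, Mal and Opalin at E13.5 depended on the method or on 1 library.

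Other genes of oligodendrocyte maturation and myelin were followed with a list of 30, chosen with earlier results known. At P7, 24 of the 30 were called lower in brain and none higher by limma, with a median log2 difference of -2.08. Over all tested genes 4.35% were called lower in brain. None was called higher by edgeR, limma-voom or DESeq2 either. At an unadjusted p under 0.05 limma, edgeR and limma-voom gave none higher, and DESeq2 gave 1, Cntn2. Among genes of late, axon-contacting oligodendrocytes, Hapln2, a link protein of the nodal matrix, was at -4.45 and the receptor Gpr37 at -4.00. Myrf, the factor that drives the myelin genes, was at -1.70, and the myelin lipid enzymes Ugt8a and Fa2h at -2.05 and -1.98. The 6 that were not called ran from -0.82 for Bcas1 to 0.27 for Cntn2.

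With age, 22 of the 30 rose and 2 fell in brain, beside 11% and 16.7% of all tested genes. In spinal cord 29 rose and 1 fell, where 16.9% of all tested genes were called higher. The gene that fell in both was Cntn2, an adhesion molecule also made by embryonic neurons, and Apod fell in brain. The change with age was smaller in brain than in spinal cord in 21 of the 30 by the test of that difference, beside 9.66% of all tested genes. In the embryo Apod was called higher in brain and Aspa lower.

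Markers of the stages before myelination were also compared between regions at P7. Of 10 OPC markers none was called in either direction by limma (median 0.13), nor by edgeR, limma-voom or DESeq2. At an unadjusted p under 0.05 limma gave 2, Cacng4 and Pdgfra, both higher in brain and under the fold threshold. The same 2 were given by edgeR and limma-voom, and DESeq2 gave 4, with Pcdh15 and Ptprz1 besides, all higher in brain. Cacng4 also had a limma adjusted p under 0.05 (0.02165, log2 difference 0.50). The summed level of the 10 was 8949 to 9974 CPM in P7 brain, against 7230 to 7417 CPM in P7 spinal cord. Of 6 genes of committed and newly formed oligodendrocytes 3 were called lower in brain, with a median of -0.79. They were Tspan2 at -2.996, which exceeded the differences of Cnp and Mbp, Prom1 at -1.24 and Enpp6 at -1.19. Tspan2 and Enpp6 are also in the list of 30 and were counted in its calls above. Bmp4, Gpr17 and Neu4 were at -0.35, -0.39 and -0.12. Markers of Schwann cells, which make peripheral myelin and also express Mbp, Mag and Mal, were near 0. The summed level of 6 was 4.23 to 4.4 CPM in P7 brain against 8.81 to 9.87 CPM in P7 spinal cord. Pmp2, a lipid-binding protein of peripheral myelin, was at 0 in all 12 libraries. Of the 5 tested, 3 were called lower in brain, and their part in the region difference of the members was not tested. Some markers of other cell types were called the other way at P7, with 4 of 5 microglia, 2 of 5 astrocyte and 2 of 6 neuronal markers called higher in brain. Of 6 leptomeningeal and vascular genes Igf2 alone was. Over all 18319 tested genes 1213 were called in this contrast, 797 of them lower in brain and the rest higher.

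The genes most like the mean of the 9 members over all 12 libraries, among tested genes that are not members, were Fnta (r = 0.996), Slc24a2, Sema4d, Sgk2, Dgat2 and Tmem151a (r = 0.993). Over the 6 P7 libraries they were Mars, Gpr37, Man1a, Col9a3, Chka and Padi2, with r from 0.9998 to 0.9995. These are Pearson correlations of log2(CPM + 0.5), the points share their groups and the difference between P7 brain and spinal cord alone gives high values, so they describe likeness of pattern only.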

How the data were processed

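The authors aligned read pairs with STAR 2.5.0a to mm10 (GRCm38), counted them per GENCODE M8 gene with featureCounts 1.5.0-p1, shared reads with several positions among them and rounded the sums. They deposited CPM values, counts divided by a rescaled library size. In the 3 columns whose sum is above that of plain CPM (E13.5 spinal cord replicate 3, P7 spinal cord replicates 1 and 2), the deposited values are the same quantity and were treated as a signal scaled by a size factor. All values (100.0%) were whole multiples of 1 read, within 0.01 reads, in all 12 columns, so reads were recovered. The floor of 3 reads was 0.0792 to 0.506 CPM. Columns of values not used numbered 0. Symbols and coordinates came from GENCODE M21 on GRCm38, and start regions from RefSeq on GRCm38.p6.

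Groups and replicate numbers came from the titles. limma 3.58.1 with an intensity trend was fitted to log2(CPM + 0.5), which understates changes of low genes, over 18319 genes (at least 0.7 CPM in at least 3 libraries), with 1 mean per group over 12 libraries. Genes were called at a Benjamini-Hochberg adjusted p under 0.05 and a change of more than 2-fold. The study describes the libraries of a group as pooled biological replicates without listing the animals of each, so p-values measure the spread between these pools. Alternatives were edgeR 4.0.16, limma-voom and DESeq2 1.42.0 on the reads, TMM, median-ratio and quantile scaling, other pseudocounts and filters, leaving out libraries and a replicate block. On simulated reads for P7 brain against spinal cord, limma recovered 195 of 200 genes changed 4-fold among 18319. The simulated spread was the same for all genes, and genes of very low mean CPM were not changed. It therefore gives no rate for genes as variable as the members in P7 brain or near the floor.

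Of the member transcripts, 4 of 8850 stretches of 75 bases in Mbp and 8 of 6824 in Mobp occur in other genes, and none in the others. Members, gene lists and the early and late groups were chosen with earlier results of these data known. All 9 members are named, the genes most alike were the 6 with the highest correlation, and other genes are named from the lists. Some genes the rules cover are not reported here.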

Additional observations from a re-analysis of the deposited data

Results flagged for a closer look

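The change from E13.5 to P7 differed between brain and spinal cord in all 9 genes by the test of that difference in limma, each with a smaller change in brain. The change in brain minus that in spinal cord, on the log2 scale, was -2.23 for Cnp, -3.45 for Mbp and -4.37 for Cldn11. It was -4.44 for Mag, -5.33 for Mog, -6.84 for Mobp, -6.14 for Mal, -6.52 for Ermn and -3.98 for Opalin. For Cldn11 the change had opposite signs, -1.23 in brain and 3.14 in spinal cord, both called. Groups of 3 libraries were too small to look for single libraries standing apart by a formal rule.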

How the results depend on the processing

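At P7 the 9 genes were called lower in brain under every alternative, except that Mag had no adjusted p in DESeq2 (log2 difference -3.63). The count at E13.5 was 1, and it was 2 with DESeq2 and 2 with the adjusted p alone, with a range of 1 to 3 when single libraries were left out. Leave-one-out counts stayed at 9 at P7, 7 with age in brain, 9 with age in spinal cord and 9 for the difference between the changes. At E13.5 the sign of genes that were not called turned. Cnp was at -0.037 with TMM, -0.090 with median-ratio scaling, -0.017 with quantile normalization and -0.051 with DESeq2, and ran from -0.20 to 0.30 over single libraries left out. That range was -0.54 to 1.10 for Mag, -0.042 to 0.52 for Mog and -0.751 to 0.25 for Mal. With limma-voom Mag was at -0.081 and Opalin at -0.14. With edgeR Mal was at 0.22, and with quantile normalization Opalin was at -0.0033. The cause was not tested.

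The gap between late and early genes was -1.83 with Mag counted as early and -2.28 with a pseudocount of 0.1, and ran from -2.13 to -1.98 over single libraries left out. The median of highest over lowest P7 brain library ran from 1.03 to 2.78, the lowest being without replicate 3, an alternative added after seeing the data. With a replicate block the counts were 9, 1, 7, 9 and 9 in the order P7, E13.5, brain, spinal cord and difference of changes. Same-numbered libraries correlated at 0.08 to 0.41 at E13.5 and 0.01 to 0.04 at P7, so the numbers were not taken as pairs. With the adjusted p alone, calls over all genes numbered 5491 in place of 1213 at P7 and 5979 in place of 1595 at E13.5. Depth limits Opalin, Mog and Mobp at E13.5.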
